A study of Homo sapiens with 4 samples.

Results

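The 10 genes of uridine salvage were followed across 4 RNA-seq libraries from the human hepatocellular carcinoma line MHCC-97H. They were taken by symbol from the deposited table of expression values: the uridine-cytidine kinase genes UCK1, UCK2 and UCKL1, the nucleoside carrier genes SLC29A1 and SLC29A2, the uridine phosphorylase genes UPP1 and UPP2, the cytidine deaminase gene CDA, UPRT, and the UMP-CMP kinase gene CMPK1. All 10 were found, each in 1 of the 33478 rows. The cells carried a short hairpin RNA (shRNA) that was either a control (SH-NC) or directed at UCK2 (SH-UCK2), with 2 libraries of each. Line and hairpin are taken from the titles, and the labels give no time, dose or selection. The descriptions of replicate 2 of each group name another line number or UCK3, so the labels conflict there. The titles of both SH-UCK2 libraries carry the letter B. If B names 1 hairpin, what its sequence does to other transcripts and what loss of UCK2 does cannot be told apart. Whether the 2 libraries of a kind are separate cultures is not stated, and p-values then describe only the spread between these libraries.

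Cells obtain UMP, the precursor of UTP and CTP, either by building it from small molecules or by salvage, in which uridine or cytidine enters through nucleoside carriers and is phosphorylated by uridine-cytidine kinases. UMP-CMP kinase then carries the monophosphates to diphosphates. Uridine phosphorylase splits uridine, and cytidine deaminase turns cytidine into uridine. UCK2 is the kinase best known from tumours and placenta, UCK1 is expressed widely in adult tissues, and liver is a major site of uridine turnover in the body.

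Values are TPM, which corrects each gene for its length, so levels of different genes can be set side by side. Over the rows used here the columns summed to 850379 and 850534 TPM in the control libraries and to 676811 and 643063 TPM in the SH-UCK2 libraries. The share of the TPM total outside these rows was thus 14.96% and 14.95% against 32.3% and 35.7%, and its part in the differences below was not tested. The median log2 difference over the 14038 genes tested was -0.22 as deposited and -0.01 after median-ratio scaling, which divides each library by its typical ratio to the mean library. Both forms are given for each log2 difference from all 4 libraries in the main fit, while those with 1 library left out are as deposited only. Of 16 hepatocyte or hepatoma markers, 13 averaged at least 1 TPM, and the summed level of the 16 was 3170 and 4248 TPM in the controls against 2783 and 2410 TPM in the SH-UCK2 libraries. Most of that sum was the keratin gene KRT8, followed by the keratin gene KRT18 at 461 to 913 TPM. The markers APOA2, APOB and FGG averaged 0.154, 0.737 and 0.623 TPM. ALB, the albumin gene, measured 18.6 to 29.5 TPM. Since the extraction protocol in the labels mentions retinas, retina markers were read too, and 0 of 8 retina markers averaged at least 1 TPM, with a summed level of 1.52 and 1.83 TPM in the controls against 1.87 and 2.53 TPM in the other group. Among them PDE6B measured 0.0373 and 0 TPM against 0.701 and 1.37 TPM, and SAG 0.133 and 0.792 TPM against 0.13 and 0.121 TPM. Of 5 leukocyte markers 1 averaged at least 1 TPM, CD68, which carried nearly all of the summed 44.2 to 55.1 TPM, while PTPRC stayed at or below 0.551 TPM and CD3E was listed at 0 in all 4 libraries. Of 3 endothelial markers only PECAM1 averaged at least 1 TPM, at 20.4 to 24.5 TPM, while VWF and CDH5 stayed below 0.5 TPM. Of 4 fibroblast or stellate markers only LUM did, at 27.6 and 5.85 TPM in the controls against 19.1 and 12.7 TPM, while COL1A1, DCN and PDGFRB stayed at or below 1.39 TPM. The part of these markers in the results below was not tested.

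The starts of 4 members are printed because the levels below turn on these paralogs: UCK2 against UCK1, and UPP1 against UPP2. Each line is the 250 bases before the RefSeq start on GRCh38.p14, read 5′ to 3′ along the gene. UCK2 is read from chr1:165827364-165827613 on the plus strand, UCK1 from chr9:131531264-131531513 on the minus strand, UPP1 from chr7:48089004-48089253 on the plus strand, and UPP2 from chr2:157994929-157995178 on the plus strand. For UPP1 and UPP2, which have 3 and 2 windows in RefSeq's table, the first listed is shown. Capitals mark matches, on either strand, to 4 short motifs, which may overlap. They are the GC box, spelled GGGCGG, and the box of CCAAT that many promoters hold. The others are the TATA box, searched as TATAAA, and the palindromic E-box, searched as CACGTG.
UCK2: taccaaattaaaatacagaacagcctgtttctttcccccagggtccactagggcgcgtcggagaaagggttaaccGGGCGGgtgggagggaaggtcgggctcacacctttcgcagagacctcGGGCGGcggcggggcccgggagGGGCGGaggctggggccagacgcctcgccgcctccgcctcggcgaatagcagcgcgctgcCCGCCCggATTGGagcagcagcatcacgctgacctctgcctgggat
UCK1: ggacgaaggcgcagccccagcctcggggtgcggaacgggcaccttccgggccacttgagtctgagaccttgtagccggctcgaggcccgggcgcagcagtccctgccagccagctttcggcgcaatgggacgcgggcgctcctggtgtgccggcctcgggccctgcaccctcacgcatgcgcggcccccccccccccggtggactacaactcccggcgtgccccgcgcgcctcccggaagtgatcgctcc
UPP1: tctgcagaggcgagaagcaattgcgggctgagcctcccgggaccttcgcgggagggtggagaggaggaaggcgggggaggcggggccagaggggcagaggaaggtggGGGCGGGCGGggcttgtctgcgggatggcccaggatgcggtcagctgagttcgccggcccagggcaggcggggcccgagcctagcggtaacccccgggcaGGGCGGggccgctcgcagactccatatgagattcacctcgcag
UPP2: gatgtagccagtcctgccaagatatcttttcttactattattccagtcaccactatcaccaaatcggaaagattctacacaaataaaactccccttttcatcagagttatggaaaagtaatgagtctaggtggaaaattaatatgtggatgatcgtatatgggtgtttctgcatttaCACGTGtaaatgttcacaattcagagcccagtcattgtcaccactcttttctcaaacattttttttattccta

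The UCK2 window held 4 GC box matches and 1 CCAAT box match, and the UCK1 window held none of the 4 motifs. Of 35114 such windows in RefSeq's table, 42.6% held the GC box, 32% the CCAAT box, 10.7% the TATA box and 6.35% the E-box. The G and C content was 66.8% for UCK2, 74% for UCK1 and 71.6% for UPP1, against 36% for UPP2 and a median of 58% over all windows. UPP2 had 3 CpG dinucleotides in its window, where UCK2 had 24, UCK1 28 and UPP1 21. RefSeq's table gave 15 windows for 9 of the members and none was matched for SLC29A2. The other UPP2 window was the only one of them with the TATA box. A match describes the letters and says nothing of binding.

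UCK2 (ENSG00000143179, hg38 chr1:165827531-165911618, plus strand), whose enzyme phosphorylates uridine and cytidine, was the most abundant member in every library. It measured 136 TPM in control replicate 1 and 93.6 TPM in control replicate 2, compared with 121 TPM and 67.8 TPM in SH-UCK2 replicates 1 and 2. The groups overlapped, since SH-UCK2 replicate 1 stood above control replicate 2, and in each group the library numbered 1 was the higher. Among 18833 protein-coding genes UCK2 ranked 928th and 1373rd from the top in the controls, and 803rd and 1428th in the SH-UCK2 libraries, so that its highest rank was in a library of the targeted group. As deposited, UCK2 differed by -0.31 ± 0.30 on the log2 scale (SE, 95% interval -1.02 to 0.39, limma adjusted p = 0.640). After scaling the UCK2 levels were 114 and 93.3 in the controls and 131 and 73.1 in the SH-UCK2 libraries, and the log2 difference was -0.08 (95% interval -0.72 to 0.57, adjusted p = 0.990). The deposited difference was -0.72 without SH-UCK2 replicate 1, -0.58 without control replicate 2, -0.05 without control replicate 1 and 0.10 without SH-UCK2 replicate 2. With quantile normalization it was 0.059. The UCK2 values of the groups were thus not separated, and directions below rest on the titles alone. In bulk RNA, fewer cells with a transcript and less of it per cell cannot be told apart.

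Part of the UCK2 row shares sequence with other transcripts. Of the distinct stretches of 50 bases in its GENCODE 29 transcripts, 4.83% also occurred in transcripts of other genes, mainly TMCO1. TMCO1, a calcium channel gene on the opposite strand, overlaps the first 225 bases of the UCK2 row and measured 69.4 and 62.7 TPM in the controls against 56.9 and 49.6 TPM in the SH-UCK2 libraries. The antisense gene RP11-525G13.2 lies inside UCK2 and measured at most 3.09 TPM. The sources used here do not say whether counting took account of strand, so this part of the UCK2 value is uncertain. UCK1 shared 0% of its stretches, so no stretch of that length was common to UCK1 and UCK2.

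UCK1 (ENSG00000130717, chr9:131523801-131531268, minus strand), the paralog with the same reaction, measured 33.9 and 35.7 TPM in control replicates 1 and 2. It measured 28.1 and 21.7 TPM in the SH-UCK2 libraries, so the groups did not overlap. Its log2 difference was -0.48 ± 0.20 (SE, 95% interval from -0.95 to just below 0, limma adjusted p = 0.325, unadjusted p = 0.0493). After scaling the UCK1 levels were 28.6 and 35.6 against 30.6 and 23.4, which overlap, and the log2 difference was -0.25 (adjusted p = 0.955). As deposited it was -0.30 without SH-UCK2 replicate 2 and -0.66 without SH-UCK2 replicate 1. No rise of UCK1 was therefore called in the libraries aimed at its paralog, while the scaled interval, -0.75 to 0.26, leaves room for a small one.

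UCKL1 (ENSG00000198276, chr20:63939829-63956415, minus strand) encodes a kinase-like relative of the other two. It measured 36.9 and 34.3 TPM in the controls against 30.4 and 28.97 TPM in the SH-UCK2 libraries. The log2 difference was -0.25 ± 0.18 (SE, limma adjusted p = 0.508), against -0.02 after scaling (adjusted p = 0.995), where the groups overlapped. Of its stretches of 50 bases 4.1% occurred in other genes, mainly in UCKL1-AS1, which was not analysed here.

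A ratio of 2 genes within a library does not depend on how that library was scaled, so the balance of the kinases was read that way. UCK2 exceeded UCK1 by 4.001-fold and 2.62-fold in control replicates 1 and 2, and by 4.29-fold and 3.12-fold in SH-UCK2 replicates 1 and 2. UCK2 exceeded UCKL1 by 3.67-fold and 2.73-fold in the controls and by 3.97-fold and 2.34-fold in the other group. UCK1 and UCKL1 were near parity, with UCK1 at 0.918 and 1.04 times UCKL1 in the controls and 0.925 and 0.75 times in the SH-UCK2 libraries. UCK2 made up 65.7% and 57.2% of the summed TPM of the 3 genes in the controls and 67.3% and 57.2% in the SH-UCK2 libraries. Each group thus held a high and a low share. UCK1 made up 16.4% and 21.8% in the controls against 15.7% and 18.3%, and UCKL1 17.9% and 21.0% against 17.0% and 24.4%, and the groups overlapped for each gene. The sum itself was 207 and 164 TPM in the controls against 179 and 119 TPM in the other group.

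**Figure D1:**
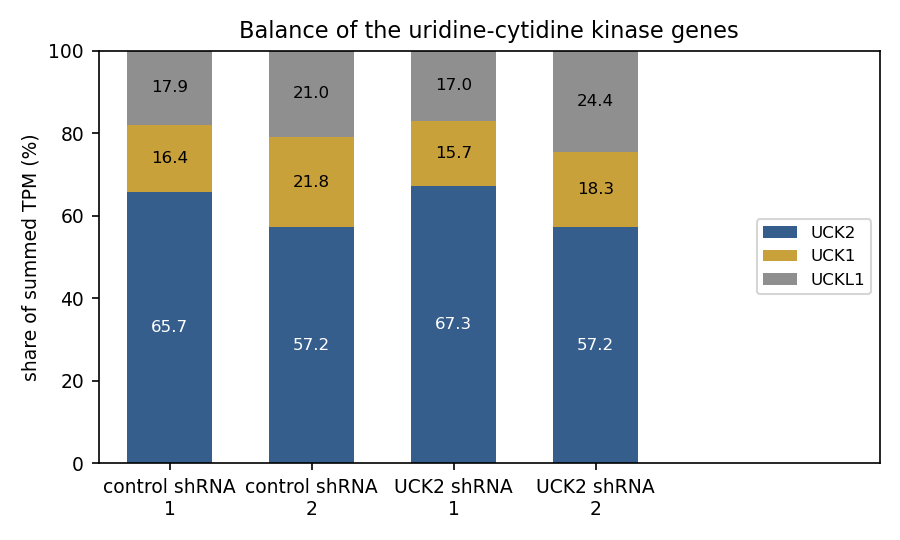
Share of each uridine-cytidine kinase gene in the summed TPM of UCK2, UCK1 and UCKL1 (percent, vertical axis) in each of the 4 libraries (horizontal axis). UCK2 holds 57.2% to 67.3% in all libraries, and replicate 1 of each group is the higher of its pair.

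On the log2 scale the UCK2 to UCK1 ratio was 1.69 ± 0.43 in the controls and 1.87 ± 0.32 in the SH-UCK2 libraries (SD, n = 2 each; exact permutation test, two-sided, p = 0.667). The UCK2 to UCKL1 ratio was 1.66 ± 0.30 and 1.61 ± 0.54 (SD, n = 2 each; exact permutation p = 1). The UCK1 to UCKL1 ratio was -0.03 ± 0.13 and -0.26 ± 0.21 (SD, n = 2 each; exact permutation p = 0.667). With 2 libraries against 2 this exact permutation test cannot go below p = 0.33, and after Benjamini-Hochberg adjustment over the 5 ratios compared each p was 1. The direction of the UCK2 to UCK1 difference turned to -0.13 without control replicate 2 and to -0.05 without SH-UCK2 replicate 1. That of UCK2 to UCKL1 turned to 0.16 without control replicate 1 and to 0.33 without SH-UCK2 replicate 2.

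The carriers that let uridine cross the plasma membrane in both directions were expressed at lower levels than the 3 kinase genes in every library. SLC29A1 (ENSG00000112759, chr6:44219505-44234151, plus strand), encoding ENT1, measured 22.7 and 20.1 TPM in the controls against 20.3 and 12.5 TPM in the SH-UCK2 libraries. SH-UCK2 replicate 2 was the low library, and the other 3 lay close together. The log2 difference was -0.40 ± 0.26 (SE, limma adjusted p = 0.487) and -0.17 after scaling (adjusted p = 0.965). Without SH-UCK2 replicate 2 the deposited difference was -0.07, and without SH-UCK2 replicate 1 it was -0.73.

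SLC29A2 (ENSG00000174669, chr11:66362521-66372214, minus strand), encoding ENT2, measured 16.5 and 13.99 TPM in the controls against 11.3 and 9.15 TPM in the SH-UCK2 libraries. It was the only member of the 9 tested whose SH-UCK2 libraries lay below both controls in the deposited values and again after scaling, where the levels were 13.9 and 13.9 against 12.3 and 9.86. Of all genes, 44.4% were lower without overlap as deposited and 15.5% after scaling, each form taken separately, so this does not set SLC29A2 apart. Its log2 difference was -0.54 ± 0.23 (SE, 95% interval -1.08 to 0.01, limma adjusted p = 0.332) and -0.31 after scaling (95% interval -0.81 to 0.18, adjusted p = 0.955). The antisense gene RP11-867G23.8 overlaps 2284 bases of SLC29A2 and measured 9.52 and 13.8 TPM in the controls against 11.03 and 7.95 TPM in the other group. Of the stretches of SLC29A2 transcripts 8.2% occurred in another gene, and the sources used here do not say how such reads were assigned, so its level is uncertain.

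SLC29A1 exceeded SLC29A2 in every library, by 1.37-fold and 1.44-fold in the controls and by 1.79-fold and 1.37-fold in SH-UCK2 replicates 1 and 2. The log2 ratio was 0.49 ± 0.05 and 0.65 ± 0.27 (SD, n = 2 each; exact permutation p = 1), and its difference turned to -0.04 without SH-UCK2 replicate 1.

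UPP1 (ENSG00000183696, chr7:48088628-48108733, plus strand), whose enzyme splits uridine into uracil and ribose 1-phosphate, was the second most abundant member. It measured 66.0 and 66.9 TPM in the controls against 58.2 and 43.1 TPM in the SH-UCK2 libraries, with no overlap. The log2 difference was -0.40 ± 0.20 (SE, 95% interval -0.86 to 0.06, limma adjusted p = 0.368) and -0.16 after scaling (adjusted p = 0.962), where the groups overlapped. As deposited it was -0.19 without SH-UCK2 replicate 2 and -0.61 without SH-UCK2 replicate 1. Relative to UCK2 in the same library, UPP1 stood at 0.487 and 0.715 in the controls and 0.483 and 0.635 in the other group, so these ratios interleaved.

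UPP2 (ENSG00000007001, chr2:157876702-158136154, plus strand), the liver-enriched uridine phosphorylase of normal tissue, was at 0.0824, 0.0239, 0.0796 and 0.0212 TPM in control replicates 1 and 2 and SH-UCK2 replicates 1 and 2. It was under the minimum mean of 1 TPM and was not tested in the main fit. A noncoding gene within its span, RP11-546J1.1, measured more, up to 1.73 TPM. Uridine phosphorylase transcripts in these cells were thus almost all from UPP1.

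CDA (ENSG00000158825, chr1:20588948-20618908, plus strand), encoding the deaminase that turns cytidine into uridine, measured 3.67 and 5.23 TPM in the controls against 2.91 and 3.002 TPM in the SH-UCK2 libraries. The log2 difference was -0.45 ± 0.29 (SE, limma adjusted p = 0.485), and -0.26 after scaling (adjusted p = 0.955), where SH-UCK2 replicates at 3.17 and 3.23 lay just above control replicate 1 at 3.10. As deposited it was -0.24 without control replicate 2 and -0.66 without control replicate 1. UPP1 exceeded CDA by 18.0-fold and 12.8-fold in the controls and by 20.0-fold and 14.4-fold in the other group. The log2 ratio was 3.92 ± 0.35 and 4.08 ± 0.34 (SD, n = 2 each; exact permutation p = 0.667), and its difference turned to -0.08 without control replicate 2 and to -0.08 without SH-UCK2 replicate 1.

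UPRT (ENSG00000094841, chrX:75274085-75304600, plus strand) is the human homolog of uracil phosphoribosyltransferase, which makes UMP from uracil in microbes. It measured 15.96 and 12.9 TPM in the controls against 12.5 and 13.5 TPM in the SH-UCK2 libraries. Its log2 difference was -0.14 ± 0.22 (SE, limma adjusted p = 0.800), and 0.09 after scaling (adjusted p = 0.984). After scaling UPRT stood at 13.5 and 12.9 against 13.6 and 14.5, so that its SH-UCK2 libraries lay just above both controls.

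CMPK1 (ENSG00000162368, chr1:47333797-47378839, plus strand), encoding the kinase that takes UMP and CMP to their diphosphates, measured 56.0 and 25.4 TPM in control replicates 1 and 2. The SH-UCK2 libraries lay between them, at 35.3 and 38.6 TPM. The log2 difference was -0.03 ± 0.34 (SE, 95% interval -0.84 to 0.77, limma adjusted p = 0.975) and 0.20 after scaling (adjusted p = 0.963). Leaving out control replicate 1 gave 0.52 and leaving out control replicate 2 gave -0.59 as deposited. The deposited difference was 0.03 without SH-UCK2 replicate 1, and with quantile normalization of all 4 libraries it was 0.25. UCK2 exceeded CMPK1 by 2.42-fold and 3.68-fold in the controls and by 3.42-fold and 1.76-fold in the other group.

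**Figure D2:**
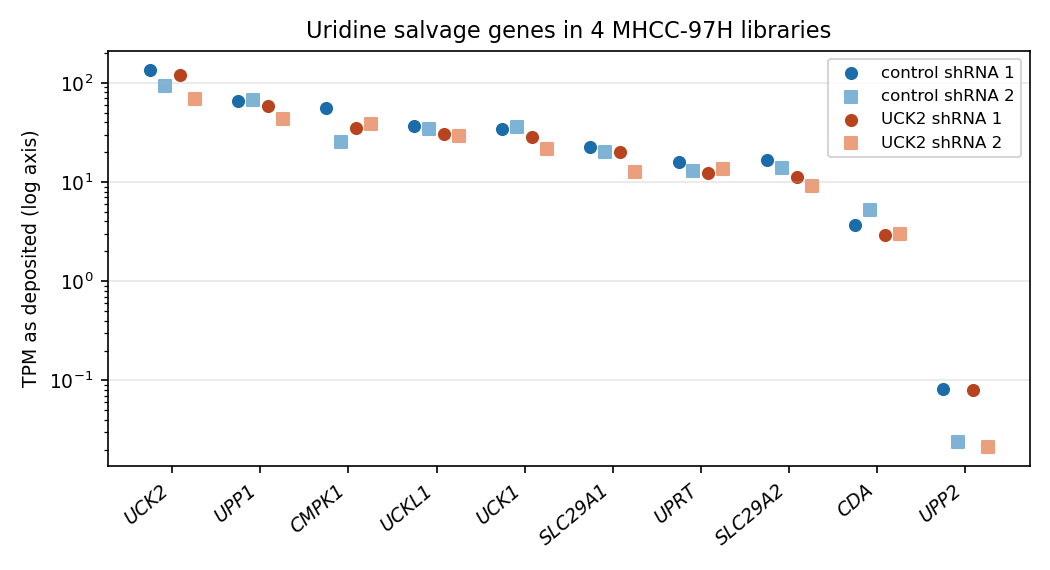
Deposited TPM of the 10 members (log axis) in each library, ordered by mean level; blue is control shRNA, orange is UCK2 shRNA, circles are replicate 1 and squares replicate 2. UCK2 leads in every library, CDA lies between 2.91 and 5.23 TPM, and UPP2 stays below 0.1 TPM.

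Ordered by mean TPM over the 4 libraries the members ran UCK2 (104), UPP1 (58.6), CMPK1 (38.8), UCKL1 (32.7), UCK1 (29.9), SLC29A1 (18.9), UPRT (13.7), SLC29A2 (12.7), CDA (3.70) and UPP2 (0.0518). The lowest UCK2 value lay above the highest UPP1 value, SLC29A2 lay wholly above CDA, and CDA wholly above UPP2. The other 6 neighbours in this order had overlapping ranges. Within libraries, UPP1 exceeded CMPK1 and UCK1 exceeded SLC29A1 in 4 of 4. CMPK1 exceeded UCKL1, UCKL1 exceeded UCK1 and SLC29A1 exceeded UPRT in 3 of 4, and UPRT exceeded SLC29A2 in 2 of 4.

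None of the 9 members tested passed an adjusted p of 0.05 in either direction with limma, where 0% of the 14038 genes did. At an unadjusted p under 0.05, 1 of 9 was lower (UCK1) and 0 were higher, against 14% and 1.38% of all genes. After scaling 0 of 9 did so in either direction, against 1.42% of all genes lower and 3.97% higher. All 9 had a deposited log2 difference below 0, where 74.7% of all genes did, and 7 of 9 after scaling, against 50.8%. The groups did not overlap for 5 members, all lower: UCK1, UCKL1, SLC29A2, UPP1 and CDA. Among all genes 44.4% were lower and 5.46% higher without overlap. After scaling 1 member was lower without overlap (SLC29A2) and 1 higher (UPRT), against 15.5% and 16% of all genes, and 0 passed an adjusted p of 0.05, where 0.0641% of all genes were higher and 0% lower. The median log2 difference of the 9 members was -0.40 as deposited and -0.16 after scaling.

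**Figure D3:**
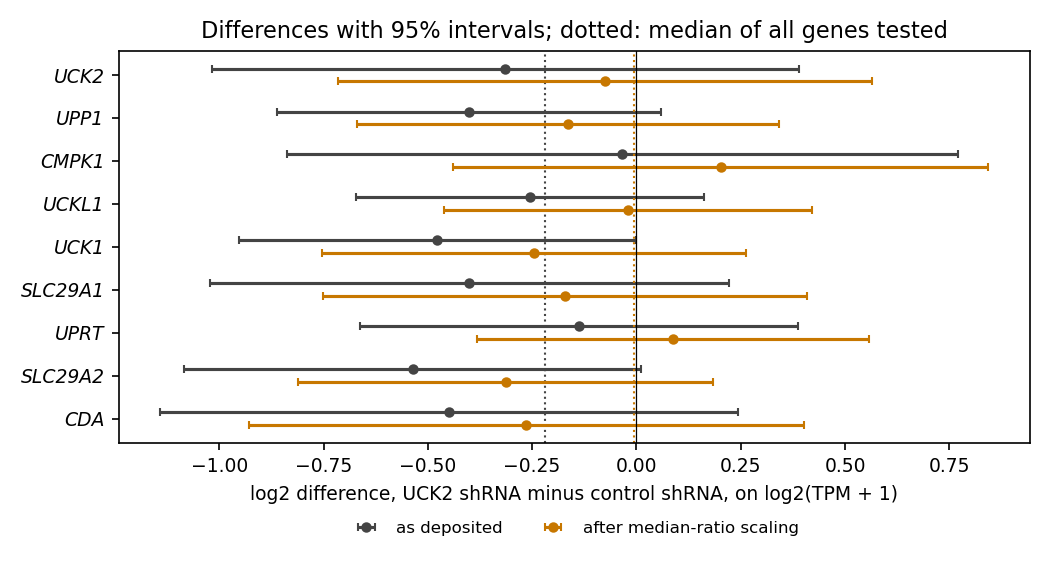
Log2 difference (horizontal axis, UCK2 shRNA minus control shRNA on log2(TPM + 1)) of the 9 members tested, as deposited in grey and after median-ratio scaling in orange. Points are limma estimates and bars 95% intervals, and dotted lines mark the medians of all genes, -0.22 and -0.01. Of the 18 intervals only that of UCK1 as deposited excludes 0.

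Among 7299 other protein-coding genes averaging at least 10 TPM, 5 had a pattern over the 4 libraries closest to that of UCK2, by root mean square distance of log2(TPM + 1) after centring each gene on its own mean. TRIP13, an AAA-type ATPase gene of the spindle checkpoint, was nearest at 0.045, with 30.1 and 21.8 TPM in the controls against 26.3 and 15.5 TPM in the other group. DDC, the aromatic amino acid decarboxylase gene, followed at 0.057, with 60.0 and 36.9 TPM against 51.5 and 28.5 TPM. EPDR1 (0.064), the inositol cotransporter gene SLC5A11 (0.064) and PAICS (0.075), a gene of purine synthesis, came next. These 5 kept their order after scaling, which moves all genes of a library nearly alike. In each, the library numbered 1 stood above the library numbered 2 of the same group, as it did for UCK2. Both results follow from how the genes were picked and add no support. With 4 libraries, likeness of pattern is a description only.

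The genes around salvage were read from 6 lists. None of the 29 genes tested of 37 listed passed an adjusted p of 0.05 with limma, as deposited or after scaling. At an unadjusted p under 0.05, 6 of 29 were lower as deposited and 0 after scaling, where 14% and 1.42% of all genes were. The median log2 difference over these 29 was -0.28 as deposited and -0.06 after scaling, with 26 and 20 of 29 below 0, against 74.7% and 50.8% of all genes.

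Of 5 other nucleoside transporters 3 were tested, and 3 of 3 lay below 0 in both forms, where 74.7% and 50.8% of all genes did. Their medians were -0.55 as deposited and -0.33 after scaling. SLC29A3, the lysosomal carrier gene, measured 42.0 and 43.7 TPM in the controls against 33.4 and 27.6 TPM in the other group (log2 difference -0.48, limma adjusted p = 0.303, scaled -0.25), above both SLC29A1 and SLC29A2 in every library. SLC29A4, encoding the membrane monoamine carrier, measured 12.5 and 12.1 TPM against 10.03 and 6.43 TPM. The 3 concentrative carrier genes are named after their values were seen. SLC28A1 and SLC28A3 stayed under 0.1 TPM in every library, and SLC28A2 measured 13.6 and 7.54 TPM against 8.61 and 4.999 TPM.

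Nucleotidases as a class reverse the kinase step, with substrates that differ by enzyme, and had 6 of 8 genes tested and medians of -0.23 and 0.0059. NT5C, a deoxyribonucleotidase gene, was more abundant than UCK2 in each library, at 239 and 245 TPM in the controls against 200 and 172 TPM in the other group (log2 difference -0.38, limma adjusted p = 0.314, scaled -0.14). NT5C2, whose enzyme prefers purine monophosphates, measured 83.4 and 63.5 TPM against 60.1 and 72.2 TPM, which overlap. NT5C3A, named after its values were seen, measured 42.3 and 17.4 TPM in the controls against 27.5 and 29.9 TPM in the other group. Its log2 difference was 0.07, and 0.31 after scaling, and the groups overlapped in both forms. Deoxynucleoside salvage had 4 of 5 genes tested, with medians of -0.25 and -0.02, and TYMP was not found by symbol among the rows. TK1, thymidine kinase of S phase, measured 171 and 215 TPM in the controls against 150 and 105 TPM in the other group (log2 difference -0.61, limma adjusted p = 0.294, scaled -0.37 with an adjusted p = 0.955). DCTD, the deoxycytidylate deaminase gene, measured 76.6 and 78.4 TPM against 71.6 and 62.1 TPM.

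CTPS1, the main CTP synthase gene, measured 43.1 and 37.2 TPM in the controls against 38.2 and 27.5 TPM in the other group, and CTPS2 measured 7.83 and 6.45 TPM against 4.75 and 6.08 TPM. CMPK2, the mitochondrial counterpart of CMPK1, also named after its values were seen, stayed at or below 0.338 TPM. Users of UTP and CTP had 11 of 13 genes tested, with medians of -0.28 and -0.04. UGDH, which oxidises UDP-glucose, measured 369 and 279 TPM in the controls against 265 and 295 TPM in the other group. PCYT2, which joins CTP to phosphoethanolamine, measured 206 and 205 TPM against 161 and 114 TPM (log2 difference -0.60, limma adjusted p = 0.294, scaled -0.36). On the route that builds UMP anew, UMPS measured 38.4 and 32.5 TPM in the controls against 31.2 and 26.8 TPM in the other group, and CAD 24.8 and 25.8 TPM against 22.4 and 21.3 TPM. UCK2 was above both in every library.

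**Figure D4:**
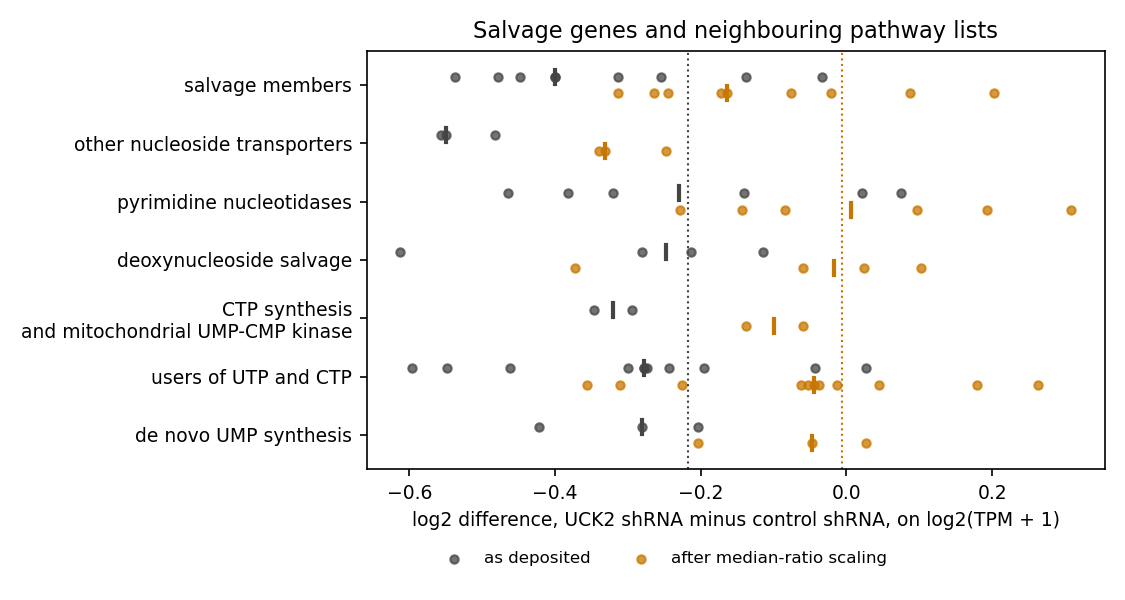
Log2 difference (horizontal axis) of each gene tested in the salvage group and 6 neighbouring lists, as deposited in grey and after scaling in orange; short bars are list medians and dotted lines the medians of all genes tested. Values spread on both sides of the dotted lines in most lists, and the 3 other transporters and the 2 CTP synthase genes tested lie to the left of them.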

How the data were processed

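Per the labels, total RNA of 4 MHCC-97H libraries was prepared with a TruSeq RNA kit and sequenced in paired ends. The authors deposited TPM values with hg38 positions. Per the submitters' processing notes, TopHat2 2.0.14, HTSeq, DESeq and edgeR were used, with no role given. TPM does not hold sequencing depth, which is therefore unknown here, and counting error cannot be given. Libraries were grouped by title; the descriptions of replicate 2 of each group name another line number or UCK3. Genes with a mean of at least 1 TPM (14038) were compared on log2(TPM + 1), a scale that understates changes of low genes, with limma 3.58.1 in R 4.3.3 (eBayes with trend, two-sided, Benjamini-Hochberg over all genes). The members and lists were chosen with earlier results of these data known. Named genes are the members, the 2 most abundant genes of each list and the 5 nearest to UCK2 in pattern. Alternatives were scaling, quantile normalization, pseudocounts, filters, no trend, a replicate block and leaving out each library. The fit was tested on simulated data. Figures used matplotlib 3.10.9. Shared stretches were counted on either strand in GENCODE 29 transcripts.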

Additional observations from a re-analysis of the deposited data

How the results depend on the processing

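No member passed an adjusted p of 0.05 under any of the 13 alternatives. Over all genes, 9 were higher after median-ratio scaling and 8 with quantile normalization. Leaving out 1 library gave 0 to 242 higher and 0 to 108 lower genes, the most without control replicate 1. The log2 difference of UCK2 was 0.059 with quantile normalization and ran from -0.72 to 0.10 with 1 library left out. After scaling UPRT gave 0.087 and CMPK1 0.20, and with quantile normalization UCKL1 gave 0.029, UPRT 0.058 and CMPK1 0.25. With 1 library left out UPRT ran from -0.28 to 0.0044 and CMPK1 from -0.59 to 0.52. The cause was not tested. UCK1, SLC29A1, SLC29A2, UPP1 and CDA kept their direction under the 12 alternatives that give a difference per gene (11 for CDA, which has none at a mean of at least 5 TPM). Among these, the filters, the fit with no trend and the replicate block cannot change a gene's difference. Direction was thus open only under the others. With 1 library left out UCK1 ran from -0.66 to -0.30, SLC29A1 from -0.73 to -0.07, SLC29A2 from -0.68 to -0.40, UPP1 from -0.61 to -0.19 and CDA from -0.66 to -0.24. The crossed pairing was read for counts alone. UPP2 failed the filter and entered only the fit with no filter, where 0 members passed, and its difference there was not read.

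Whether the replicate numbers mark a pairing cannot be decided here. With 2 pairs, deviations of same-numbered libraries from their group means correlated at -0.21 across genes. The 2 deviations of a group mirror each other, so crossed numbers give the same size with the opposite sign by construction. With the replicate block the UCK2 difference stays -0.31 by design, because each replicate number occurs in both groups, and its limma adjusted p was 0.672. Under that block 0 members passed, and 29 genes were higher and 10 lower. The crossed pairing, chosen after seeing the data, gave 91 higher and 636 lower genes and 0 members. With 1 library left out the differences in log2 ratio ran as follows. UCK2 to UCK1 ran from -0.13 to 0.48, UCK2 to UCKL1 from -0.43 to 0.33, UCK1 to UCKL1 from -0.38 to -0.08, SLC29A1 to SLC29A2 from -0.038 to 0.35, and UPP1 to CDA from -0.084 to 0.41.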
